A study of Ovis aries with 12 samples.

Results

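Among 12 small RNA libraries of cultured lamb pulmonary artery endothelial cells, 3 held almost no miR-126: control 2, PPHN 8 and PPHN 11. They were chosen by a measured value, as the libraries in which the abundant entry mmu-miR-126b-3p had a count under 1000 CPM (counts scaled to a common column total), and they were compared with the other 9. An entry is 1 row of the count table. It carries 1 or several miRBase names from many species, so the prefix (oar for sheep, bta for cow, hsa for human, mmu for mouse, rno for rat and so on) names the source of the name and not of the reads.

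The cells came from the main pulmonary artery of lambs after fetal surgery at about 125 days of gestation. For 6 libraries, numbered 7 to 12, the ductus arteriosus had been tied off in the womb for 5 to 7 days, which models persistent pulmonary hypertension of the newborn (PPHN). The 6 control libraries, numbered 1 to 6, followed sham surgery. Both groups share the collagenase isolation, the purification on beads with a CD31 antibody and the growth in culture between passages 2 and 5, so both are models of cultured endothelium rather than of the vessel in place. The low side therefore holds 1 control and 2 PPHN libraries, and the other side 5 controls and 4 PPHN libraries. The labels tie no library to a lamb of its own, so every p-value reflects only how these libraries vary, and some of that variation may be technical.

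A miRNA is a short RNA that guides Argonaute proteins to partly matching messenger RNAs and lowers their output. The precursor hairpin yields a 5p and a 3p arm, and each arm can be loaded. The hairpin of miR-126 lies in an intron of EGFL7, a gene of endothelial cells, and in mouse and fish miR-126 is needed for intact vessels because it relieves brakes on growth factor signalling. It is the usual miRNA marker of endothelium. By contrast, miR-143 and miR-145 come from 1 transcript that is strong in smooth muscle, and miR-221 and miR-222 come from another that restrains KIT and the cell cycle inhibitor p27.

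The totals over the 470 listed entries were 4101316 counts in control 2, 2655849 in PPHN 8 and 2250077 in PPHN 11, the 3 lowest of the series, against 4697471 to 17740932 in the other 9. A level below is CPM after TMM scaling unless stated otherwise, and a floor of 3 counts lay between 0.169 and 1.33 CPM of the column total. No 2 libraries were alike within sampling noise. In bulk samples such as these, fewer cells of a type and less of an RNA per cell cannot be told apart.

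Before scaling, mmu-miR-126b-3p stood at 199 CPM of the column total in control 2 (816 counts, exact 95% Clopper-Pearson interval 186 to 213). It stood at 219.5 CPM in PPHN 8 (583 counts, 202 to 238) and at 194 CPM in PPHN 11 (436 counts, 176 to 213). These intervals cover counting error only. The nearest library on the other side of the threshold was control 4, at 11722 CPM, and the highest was control 5, at 124968 CPM, so no library lay near 1000 CPM.

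All 6 entries with a miR-126 name followed the same split, which is a description and not a result, since this miRNA chose the libraries. After scaling, mmu-miR-126b-3p was at 161, 195 and 176 CPM in control 2, PPHN 8 and PPHN 11, and at 10588, 44750.4 and 98168 CPM as the lowest, median and highest of the other 9. The mean of the 9 was 261 times that of the 3. The other arm, bta-miR-126-5p, was at 7.30, 4.67 and 7.28 CPM in the 3 libraries and at 181, 1176 and 2442 CPM in the 9, a ratio of means of 179. The entry ccr-miR-126-3p was at 3.36, 4.01 and 3.64 CPM in the 3 libraries and averaged 875 CPM in the 9. The entries mmu-miR-126b-5p, ipu-miR-126a and gga-miR-126-3p had 0 counts in all 3 low libraries. Against the floor of 3 counts in the shallowest of them, their mean in the 9 was at least 9.63-fold, 9.38-fold and 7.63-fold higher. Both arms were thus lower together: the ratio of mmu-miR-126b-3p to bta-miR-126-5p counts was 22.1, 41.6 and 24.2 in the low libraries, on only 37, 14 and 18 counts of the 5p arm, and 34.9 to 58.5 in the others. The endothelial list is wider than the markers miR-126 and miR-139, and also holds miR-10a, miR-125b, miR-221, miR-222 and others. Of its 19 other tested entries, 11 had a higher and 8 a lower fitted level on the low side (median log2 difference 0.21). Over all 462 entries, 248 were higher and 214 lower. Of the 19, 4 lay above the range of the 9. Whether the cells kept an endothelial identity was not tested. The marker miR-139 was sparse everywhere: bta-miR-139 had 5, 1 and 4 counts in the 3 libraries, or 0.987, 0.334 and 1.62 CPM, against 1.49 to 7.14 CPM in the 9.

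**Figure D1:**
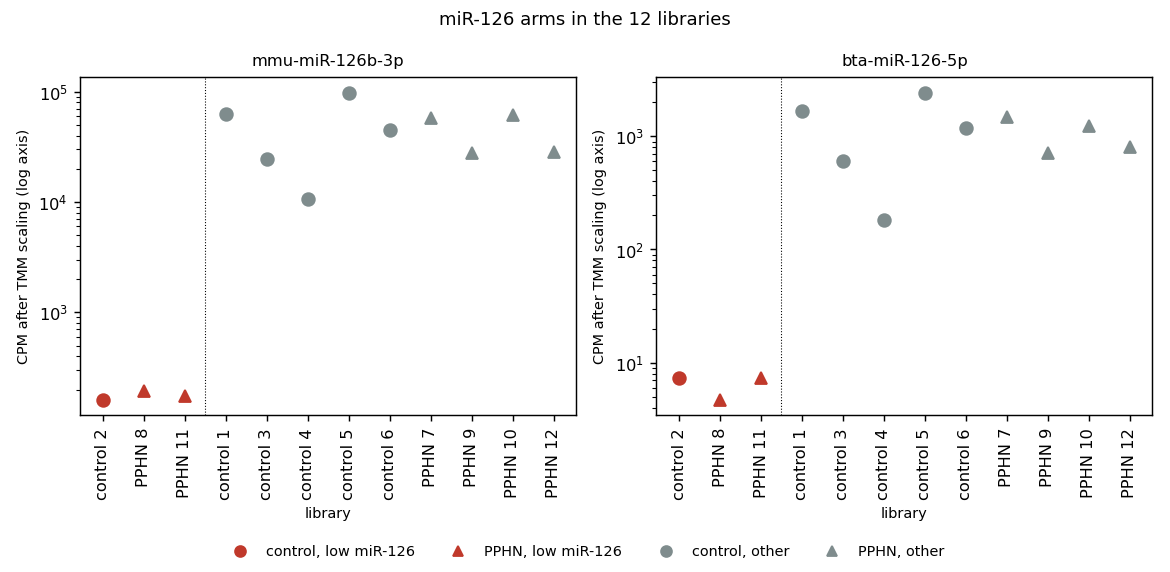
Level of both miR-126 arms (CPM after TMM scaling, log axis) in each of the 12 libraries, with the low side left of the dotted line, circles for control and triangles for PPHN. The 3 low libraries sit between 161 and 195 CPM for the 3p entry, and the lowest of the others is control 4 at 10588 CPM.

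Apart from miR-126, the 3 libraries shared lower levels of miR-143, miR-145-5p, miR-181b, miR-181c, miR-181d, miR-449a, miR-1468 and the miR-195 and miR-497 pair. They also shared higher levels of miR-221, miR-222, miR-31, miR-29b and miR-615. All 3 lay outside the range of the other 9 in 34 of 462 tested entries without a miR-126 name, or 7.36%: below it in 18 (3.9%) and above it in 16 (3.46%). With surgery as covariate, 5 of the 462 passed edgeR's quasi-likelihood test at a Benjamini-Hochberg adjusted p of 0.05, or 1.08%, of which 3 were lower (0.649%) and 2 higher (0.433%). Each of the 5 was also outside the range of the 9. They were bta-miR-181c, ssc-miR-181d-5p, bta-miR-449a, hsa-miR-222-5p and rno-miR-222-5p, so the other shared differences named above did not pass. At an unadjusted p under 0.05 there were 99, 53 lower and 46 higher. DESeq2 called 58 entries, 37 lower and 21 higher, and limma-voom called 7, 3 lower and 4 higher. Over all 462 entries the median log2 difference was 0.05.

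These calls sit close to the threshold. The 6 miR-126 entries were part of the adjustment, and adjusted over the 462 others alone only bta-miR-181c stayed under it. The count was 9 (4 lower, 5 higher) with upper-quartile scaling and 12 (2 lower, 10 higher) with column totals alone, which shift the median log2 difference of all entries from 0.05 to 0.33; the 34 entries became 38 (12 lower, 26 higher) with column totals. Without control 4, edgeR called 35 entries, 18 lower and 17 higher, and 54 lay outside the range. Other libraries moved the counts too: without control 3, control 5, PPHN 8 or PPHN 11, edgeR called 9, 12, 2 and 3 entries, and without control 2 or PPHN 11, 97 and 76 entries lay outside the range.

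**Figure D2:**
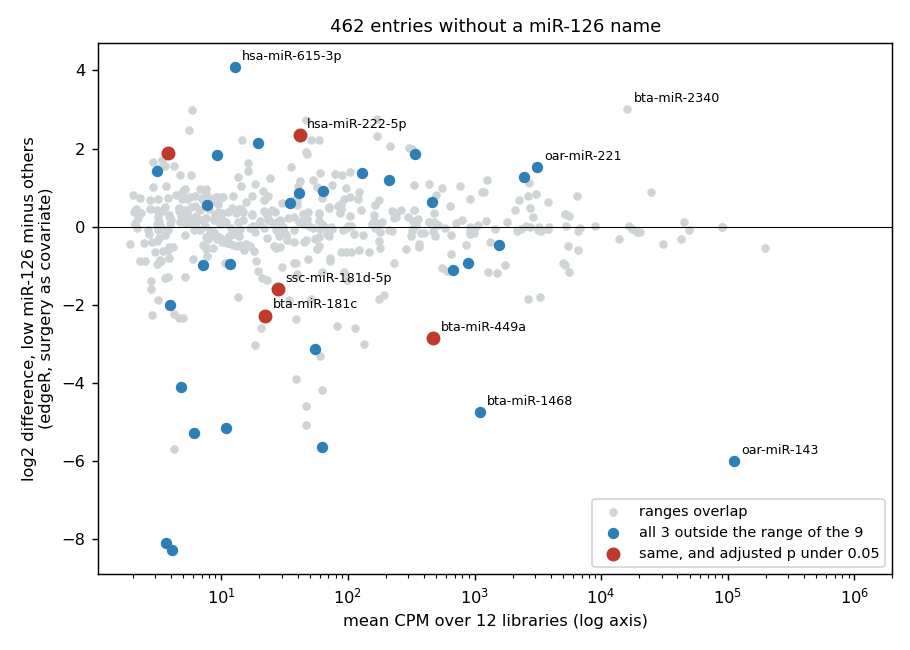
Fitted log2 difference (low miR-126 libraries minus the others, edgeR with surgery as covariate) against mean CPM over 12 libraries (log axis) for 462 entries without a miR-126 name. Blue and red points are the 34 entries in which all 3 low libraries lay outside the range of the other 9, red ones also with an adjusted p under 0.05; the abundant outlying point is oar-miR-143, at -6.01.

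The most abundant entry that separated the sides was oar-miR-143, the main miRNA of contractile vessel cells and the second most abundant entry of the series. In control 2, PPHN 8 and PPHN 11 its level was 2210.2, 2157 and 2388 CPM. In the other 9 it was at 4309.8, 170870.4 and 301222 CPM as lowest, median and highest. The 3 low libraries lay close together, while the 9 spread widely, with control 4, control 5 and PPHN 10 far below the rest. The log2 difference was -6.01 (SE 1.57; edgeR adjusted p = 0.0557), so it did not pass. Its cluster partner ssc-miR-145-5p was at 1.97, 1.00 and 1.21 CPM, on 10, 3 and 3 counts, against 2.86, 69.8 and 223 CPM. It did not pass either (edgeR adjusted p = 0.0803). The other arm mml-miR-145-3p had 0 counts in all 3 low libraries, and its mean in the 9 was at least 4.48-fold higher. In control 4, control 5 and PPHN 10, however, it had only 1, 2 and 5 counts, or 0.0809, 0.190 and 0.942 CPM. These levels lie under the floor of 1.21 CPM in the shallowest low library, so its separation from those libraries cannot be read. A mouse-named entry of the same arm, mmu-miR-145a-3p, which the list does not hold, had 1, 0 and 0 counts but also 0 in control 5 and 2 in control 4, so it overlapped. Lower smooth muscle miRNAs and lower miR-126 thus occurred in the same 3 libraries. Also oar-miR-133, of a muscle family and named after its values were seen, was at 17.2, 3.34 and 1.62 CPM against 3.80, 75.4 and 195 CPM, with overlapping ranges.

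Because control 4 (4309.8 CPM), control 5 (7522 CPM) and PPHN 10 (18366 CPM) also held little miR-143 while keeping miR-126, the 3 low libraries were set beside these 3 alone. Control 4, control 5 and PPHN 10 are among the libraries that set the range of the 34 entries. At the same scaling all 34 must lie outside the narrower range too, so counting them tests nothing. In the separate fit, 27 lay outside, 3 overlapped (bta-miR-1468, bta-miR-497 and ssc-miR-151-3p), and 4 sparse ones fell to the filter. The 3 overlaps are absent at the scaling of the whole series. There ssc-miR-151-3p reached 1242 CPM in the low libraries, against 1441 CPM in control 4. Against control 4, control 5 and PPHN 10, oar-miR-143 had a log2 difference of -2.19 (SE 0.45), oar-miR-221 of 1.71 (SE 0.38) and bta-miR-181c of -2.37 (SE 0.56). With 3 libraries a side, edgeR called 0 entries (lowest adjusted p among the 34 entries 0.444). The count of all entries outside the range was 74. Only 3 libraries set this range, which makes it easier to leave. The 74 thus cannot be read against the 34 of the whole series.

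The miR-181 family, whose members share 1 seed and of which miR-181b restrains inflammatory NF-kB signalling in mouse and human endothelium, was lower in 4 of 4 entries, and 3 of the 4 lay below the range of the 9. The lowest p of all entries without a miR-126 name belonged to bta-miR-181c. It was at 6.32, 6.01 and 4.04 CPM in control 2, PPHN 8 and PPHN 11, on 32, 18 and 10 counts, and at 17.8, 27.3 and 44.4 CPM in the others. That is a log2 difference of -2.27 (SE 0.36; edgeR adjusted p = 0.00458, 6.47e-08 to 0.548 over the alternatives). It passed in 25 of 26 alternatives, the exception being the comparison with the miR-143-poor libraries alone, and no library of one side came near the other.

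From the same hairpin cluster, ssc-miR-181d-5p was at 10.1, 8.01 and 11.3 CPM against 19.6, 30.7 and 58.4 CPM. Its log2 difference was -1.60 (SE 0.34; edgeR adjusted p = 0.0234, up to 0.548 over the alternatives), and it missed the threshold in 14 of 26 alternatives, among them those without control 1, 2 or 3 or without PPHN 7, 8, 9, 10 or 12 (adjusted p up to 0.141). The more abundant bta-miR-181b was at 638, 519.8 and 321 CPM against 710.2, 951 and 1609.8 CPM, a log2 difference of -0.92 (SE 0.25; edgeR adjusted p = 0.0617). The most abundant member, oar-miR-181a, overlapped: it was at 2895, 6643 and 4199 CPM, against 3673 to 14794 CPM, with control 2 below all of the 9 and PPHN 8 near their median of 6683 CPM.

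The entry bta-miR-449a, which has the seed of the p53-induced miR-34 family and in human lies in an intron of CDC20B, had levels of 136, 59.4 and 39.6 CPM in control 2, PPHN 8 and PPHN 11. The other 5 controls lay between 199.7 and 555 CPM, and the other 4 PPHN libraries between 652 and 1204 CPM. The log2 difference was -2.85 (SE 0.59; edgeR adjusted p = 0.0234, up to 0.548 over the alternatives), and the adjusted p was 0.126 without PPHN 8 and 0.0705 without PPHN 11. Without control 2 the log2 difference was -4.11. Its level was higher in PPHN than in control among libraries with miR-126, and lower in PPHN than in control among those without. The difference between the surgery groups in this contrast (log2 -2.54, SE 0.65) did not pass (edgeR interaction adjusted p = 0.417), and it rests on control 2 alone on the control side. The cluster neighbours bta-miR-449b and bta-miR-449c, named after their values were seen, were at 35.7, 12.0 and 4.04 CPM and at 81.7, 32.7 and 19.8 CPM. In the 9 they ranged from 32.8 to 104 CPM and from 47.0 to 243 CPM, so control 2 overlapped in both.

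Several lower entries came close to the limit of detection in the 3 libraries. The arm bta-miR-338 had 0 counts in each of them, and its mean in the 9 was at least 4.00-fold higher. On the opposite strand of that locus in human lies miR-3065: hsa-miR-3065-5p had 1, 0 and 3 counts, or 0.197, 0 and 1.21 CPM, against 2.43, 13.0 and 35.6 CPM. The entry bta-miR-504 had 0, 2 and 0 counts, or 0, 0.668 and 0 CPM, against 1.54, 5.90 and 19.1 CPM. At these counts the 3 libraries cannot be ranked among themselves.

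The list of miR-15, miR-16 and related hairpins, whose 5p arms restrain the cell cycle, holds both 5p and 3p arms. All 9 of its entries had a lower fitted level, with a median log2 difference of -0.83, and 2 of 9 lay below the range of the 9. They were bta-miR-497 and rno-miR-195-3p, a 3p arm without the family's seed, from 1 shared transcript. Counts of rno-miR-195-3p were 3, 1 and 0. The level of bta-miR-497 in control 2, PPHN 8 and PPHN 11 was 17.8, 4.34 and 2.83 CPM, against 17.9, 62.2 and 202 CPM, so that control 2 and control 4 were nearly equal. The abundant oar-miR-16b was at 4855, 3252 and 3669 CPM against 4621 to 7807 CPM, and bta-miR-15b at 284, 181 and 169 CPM against 252 to 439 CPM. In both, PPHN 8 and PPHN 11 lay below the 9 and control 2 lay within their range.

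Without a role given here, bta-miR-1468 had 152, 162 and 56 counts in the low libraries, a mean level of 35.6 CPM. The lowest of the 9 was control 4 at 55.5 CPM, and the others lay between 312 and 4480.3 CPM, so control 4 stood with the low side (log2 difference -4.74, SE 1.27; edgeR adjusted p = 0.0609). The 5 remaining lower entries had smaller differences. They were cgr-miR-582 (2 to 6 counts in the low libraries), rno-miR-3570, bta-miR-2284ab, bta-miR-3613b and ssc-miR-151-3p, with log2 differences between -1.99 and -0.47 and edgeR adjusted p between 0.0617 and 0.203. Of these ssc-miR-151-3p, whose host gene in human is the focal adhesion kinase PTK2, was the most abundant, at 1146, 1242 and 1217 CPM against 1413 to 2340.2 CPM.

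**Figure D3:**
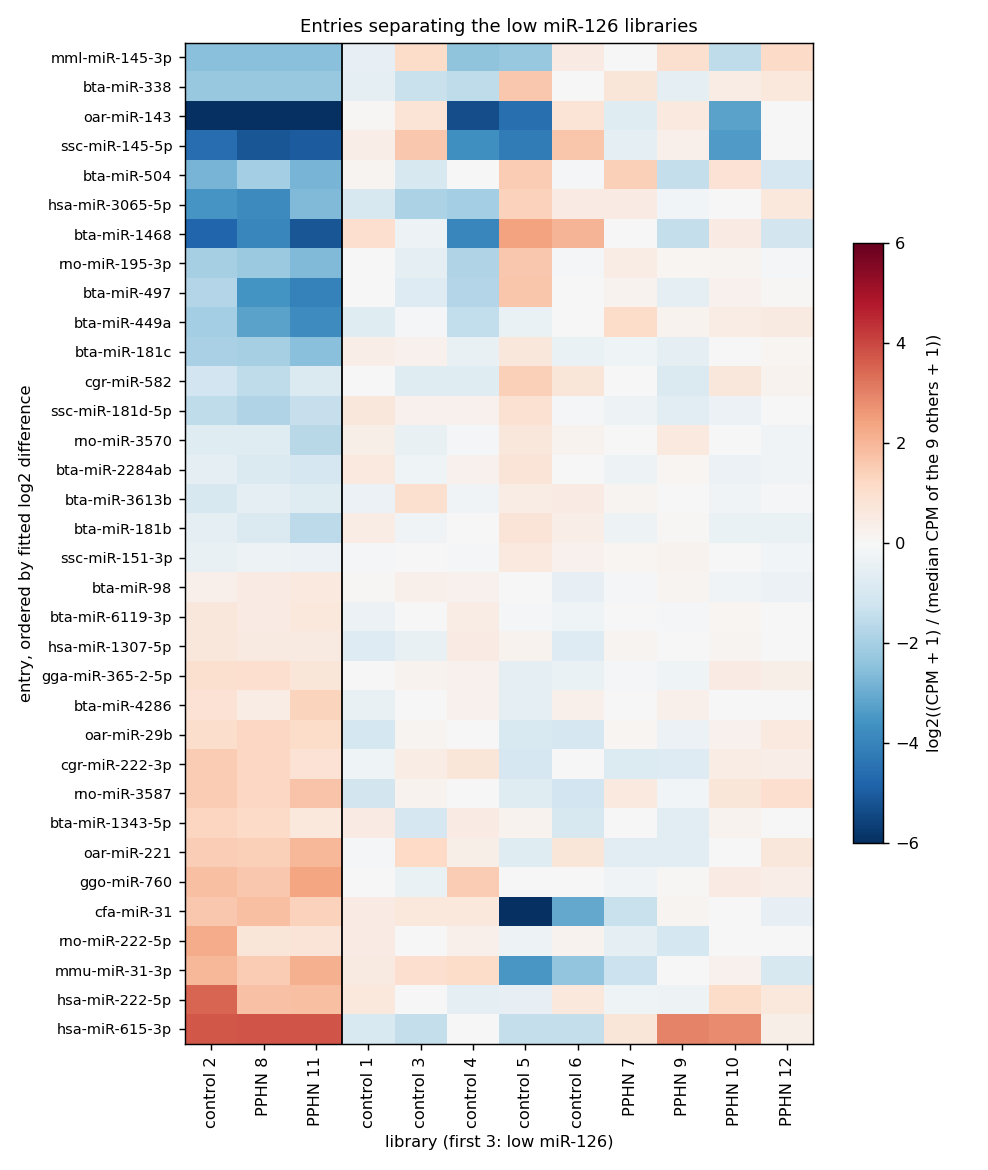
Level of the 34 entries in each library as log2((CPM + 1) / (median CPM of the 9 others + 1)), with rows ordered by fitted difference and the 3 low libraries left of the line. The colour scale ends at 6 in either direction; 18 rows are below and 16 above the range of the others in all 3 low libraries, and control 4 resembles them in several of the upper rows.

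On the higher side, all 4 entries of miR-221 and miR-222 lay above the range of the 9 in all 3 low libraries. The list's median log2 difference was 1.71, against 0.05 over all entries. The level of oar-miR-221 was 5132, 5045 and 7271 CPM in control 2, PPHN 8 and PPHN 11, and 1104, 1849 and 4302 CPM in the others (log2 difference 1.52, SE 0.41; edgeR adjusted p = 0.0591). That of cgr-miR-222-3p was 5276, 4365 and 3294 CPM against 913, 1816 and 3019 CPM (log2 difference 1.26, SE 0.36; edgeR adjusted p = 0.0733). Neither passed the threshold.

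The minor 5p arm of miR-222 passed in both of its entries. The level of hsa-miR-222-5p in control 2, PPHN 8 and PPHN 11 was 198, 59.8 and 60.7 CPM, against 11.4, 16.8 and 37.7 CPM (log2 difference 2.36, SE 0.45; edgeR adjusted p = 0.0160, 0.000159 to 0.548 over the alternatives). Every low library lay above the highest of the 9, and control 2 lay far above the PPHN pair. The other entry, rno-miR-222-5p, had 76, 14 and 12 counts in the 3 libraries and stood at 15.0, 4.67 and 4.85 CPM against 0.640 to 3.83 CPM (log2 difference 1.89, SE 0.39; edgeR adjusted p = 0.0234, up to 0.548 over the alternatives). Without control 2 the adjusted p of both was 0.167, and the log2 difference of hsa-miR-222-5p was 1.40. For rno-miR-222-5p it was 0.0595 without PPHN 8 and 0.0503 without PPHN 11.

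Both listed entries of miR-31, 1 for each arm, were above the range of the 9. The level of cfa-miR-31 was 736, 837 and 616 CPM, against 2.67, 237 and 369.9 CPM, with control 5 and control 6 at the bottom. The 3p arm mmu-miR-31-3p was at 46.6, 34.0 and 52.6 CPM against 0.0952, 11.1 and 24.8 CPM. Neither passed (log2 differences 1.86, SE 0.91, and 2.16, SE 0.96; edgeR adjusted p = 0.250 and 0.217). A sparser entry that the list does not hold, sme-miR-31b-5p, was at 44.2, 29.7 and 23.9 CPM against 0.190 to 24.9 CPM, so PPHN 11 overlapped with control 1.

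The miR-29 family lowers collagen and other matrix messages. Its member oar-miR-29b was at 353, 404 and 368 CPM against 83.5, 172 and 262 CPM (log2 difference 1.19, SE 0.31; edgeR adjusted p = 0.0557), and the 3 low values lay close together. The more abundant oar-miR-29a was at 3611, 3657 and 3335 CPM within a range of 1612 to 4411 CPM in the 9, so only 1 of the 2 members separated the sides.

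A miRNA of the HOXC gene cluster, hsa-miR-615-3p, was at 34.5, 36.1 and 35.6 CPM in the low libraries. The other 5 controls were at 0 to 1.70 CPM, and the other 4 PPHN libraries at 2.43 to 20.0 CPM (log2 difference 4.09, SE 1.20, edgeR adjusted p = 0.0806). Without control 2 the log2 difference was 1.69 (edgeR adjusted p = 0.496). Also higher were ggo-miR-760 (17.6, 15.4 and 26.3 CPM against 3.04 to 14.3 CPM; edgeR adjusted p = 0.0509) and rno-miR-3587 (244, 202 and 279 CPM against 37.4 to 171 CPM; edgeR adjusted p = 0.0557). Like oar-miR-29b, rno-miR-3587 was lowest in control 1, control 5 and control 6, and PPHN 12 was the highest of the 9 for both. These entries may therefore not be independent, and whether they share reads was not tested. The remaining 6 higher entries were bta-miR-98 of the let-7 family, bta-miR-6119-3p, hsa-miR-1307-5p, gga-miR-365-2-5p, bta-miR-4286 and bta-miR-1343-5p, with log2 differences from 0.57 to 1.42 and edgeR adjusted p from 0.0803 to 0.238.

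**Figure D4:**
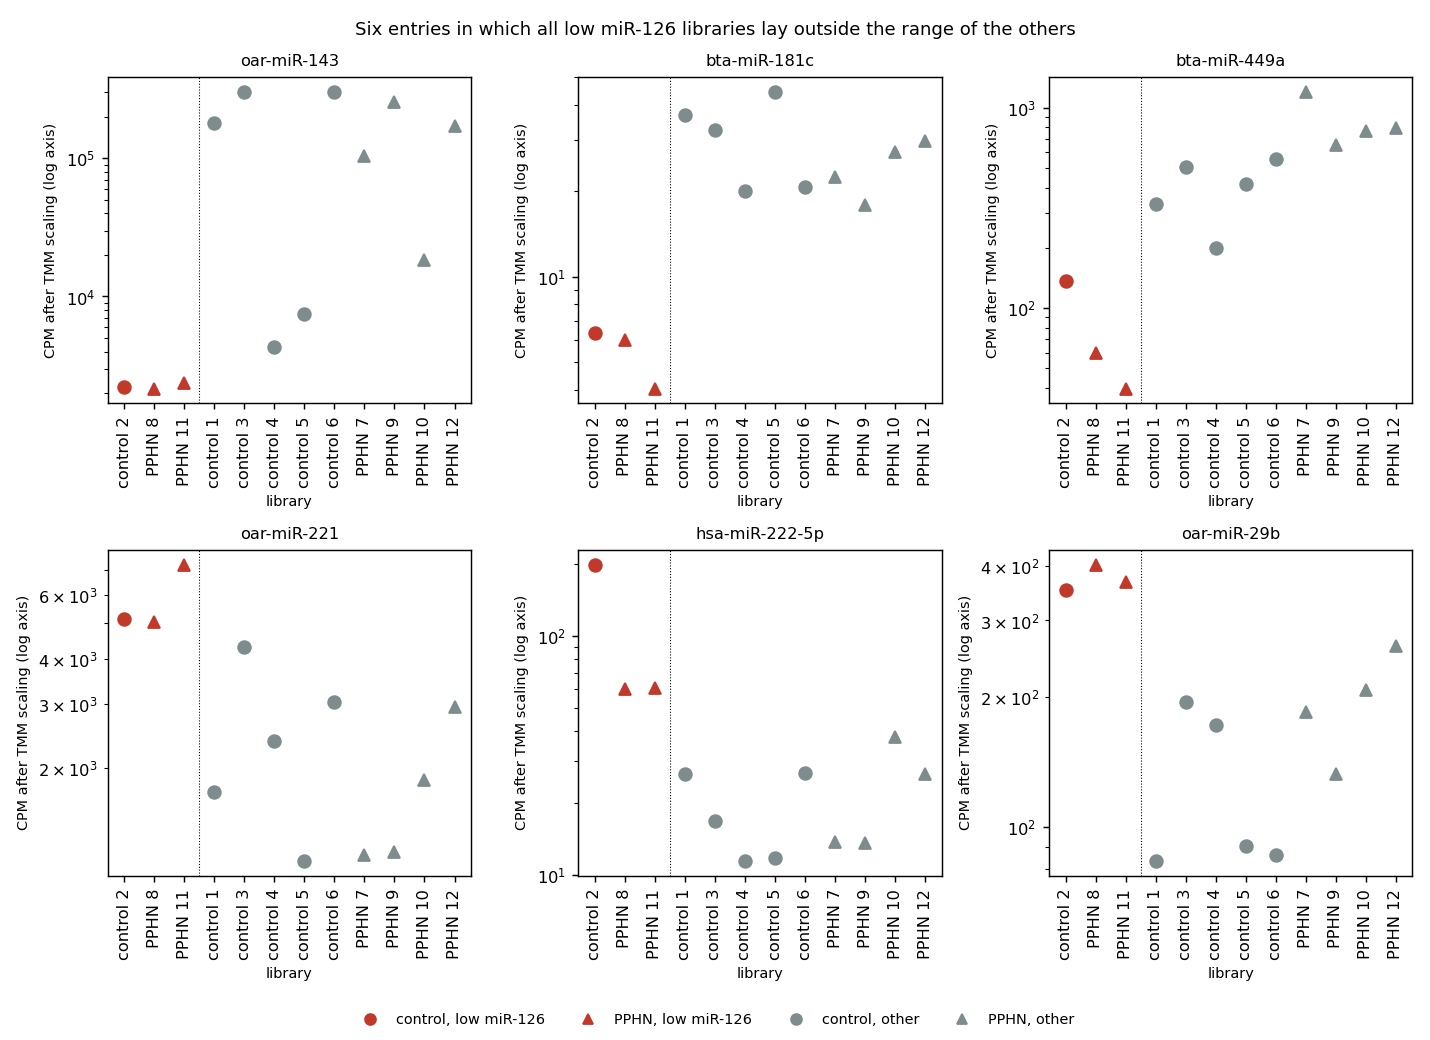
Level (CPM after TMM scaling, log axis) of 6 of the 34 entries in each library, circles for control and triangles for PPHN, red for low miR-126. In the upper row the red points lie below all others, and in the lower row above all others; in oar-miR-143 the low libraries lie between 2157 and 2388 CPM.

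Of the 9 libraries with miR-126, control 4 was nearest to the low side in 15 of the 34 entries. The next was PPHN 9, in 6, and control 6 and PPHN 7 were never nearest. Control 4 also had the lowest miR-126 of the 9. Its total of 11171643 counts was the second highest of the series. Whether depth had a part in the split was not tested. Since the 3 low libraries had the lowest totals, counts of every library were thinned at random to 2250077: 23 of the 34 entries then still lay outside the range of the 9, and edgeR called 3 of the 5 (bta-miR-181c, bta-miR-449a and hsa-miR-222-5p). Of the other 2, ssc-miR-181d-5p had an adjusted p of 0.0628 and rno-miR-222-5p was left out by the filter.

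No marker list of another cell type had a summed level above the others in all 3 low libraries. The summed level of the 3 smooth muscle entries was 2158 to 2389 CPM in the low libraries and 4314.5 to 301452 CPM in the others. The 10 fibroblast or mesenchymal entries, mostly miR-199 and miR-214 under several names, summed to 5776, 1868 and 496 CPM in control 2, PPHN 8 and PPHN 11, against 3505 to 20301 CPM. The fitted level was lower in 9 of 10 (median log2 difference -2.10), but 0 of 10 had all 3 libraries outside the range. Control 2 lay within the range, and in dre-miR-140-3p, hsa-miR-140-5p and bta-miR-199b so did PPHN 8 and PPHN 11. In PPHN 11, bta-miR-214 had 0 counts and oar-miR-199a-3p was at 55.4 CPM, where PPHN 8 was at 687 CPM and control 2 at 2131 CPM. Both epithelial entries, hsa-miR-203a and oar-miR-200b, had a higher fitted level (median log2 difference 0.34, against 0.05 over all entries). Their sum was 8.49, 119 and 159 CPM, within the 1.44 to 402 CPM of the others, and 0 of the 2 lay outside the range. The 402 CPM was control 4, and the next highest of the 9 was PPHN 9 at 101 CPM. PPHN 8 and PPHN 11 thus lay above all of the 9 except control 4. The 2 blood entries, miR-486 and miR-451, summed to 159, 15.4 and 27.9 CPM, with the PPHN pair below the 51.2 to 900.4 CPM of the others. The part of other cell types in the differences was not tested.

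In the other lists the 3 libraries rarely stood apart together. In the endothelial list the 4 entries outside the range were those of miR-221 and miR-222. None of 20 entries of miR-17-92 and its paralogs, which favour proliferation, lay outside the range (9 higher, 11 lower), nor did any of the 7 miR-30, 7 miR-130 and miR-301, 5 miR-23, miR-27 and miR-24, 8 miR-125, miR-99 and miR-100, or 5 miR-148 and miR-152 entries. With column totals alone the balance of the miR-17-92 list was 17 higher and 3 lower, and the medians of that list, of the let-7 list (-0.02 to 0.27), of the miR-130 list (-0.09 to 0.19) and of the miR-23 list (-0.32 to 0.02) turned positive; the let-7 median was also 0.01 with upper-quartile scaling. In the let-7 list, 6 of 12 were higher and bta-miR-98 was the 1 outside the range. Both miR-210 entries, from the standard hypoxia miRNA, had a higher fitted level (median log2 difference 2.07): bta-miR-210 was at 81.3, 209.6 and 66.7 CPM, but control 4 reached 119 CPM against a median of 13.9 CPM in the 9. The lists of inflammation (3 of 4 higher), p53 and senescence (4 of 5 higher), and names withdrawn as fragments of other RNAs (1 of 2 higher) had 0 entries outside the range. The last list holds only bta-miR-1246 and cgr-miR-1260, so it says nothing of other fragment entries. The counts outside the range can be read against 7.36% of all entries. Counts of higher entries can be read against 248 higher of all 462, or 325 with column totals alone.

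The 5 most abundant entries, apart from oar-miR-143, did not separate the sides. The level of oar-miR-21 was 147549, 134567 and 171595 CPM, against 134390.2 to 314743 CPM (log2 difference -0.55, SE 0.21; edgeR adjusted p = 0.188). Those of oar-miR-22-3p and of its near-duplicate bta-miR-3600 had a log2 difference of 0.00 (SE 0.22), and oar-let-7f one of -0.08 (SE 0.18).

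The 3 libraries also differed from each other. Taken singly, control 2 lay outside the range of the 9 in 156 of 462 entries, PPHN 8 in 207 and PPHN 11 in 206, against the 34 that they shared. No such count was made for any of the 9, so these have no reference. They also do not measure how far the 3 lay from each other. In pairs, PPHN 8 and PPHN 11 lay together beyond the other 10 libraries in 74 entries, control 2 and PPHN 8 in 52, and control 2 and PPHN 11 in 19. No pair of the 9 was counted in this way. Whether the 3 libraries differed more from each other than the 9 did was not tested.

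The 3 low libraries differed across the whole imprinted DLK1-DIO3 region, a large miRNA cluster expressed from the maternal chromosome. In 48 of its 48 entries PPHN 11 was the highest of the 3 libraries, and in 37 it was the highest of all 12. PPHN 8 lay below all of the 9 in 40 of the 48, and control 2 in 28. Summed, the 48 entries stood at 491, 271 and 15001 CPM in control 2, PPHN 8 and PPHN 11, where the 9 ranged from 859 to 11251 CPM. Among abundant entries, oar-miR-127 was at 225, 128 and 7536 CPM, oar-miR-411a-5p at 101, 64.8 and 2916 CPM and oar-miR-409-3p, with its near-duplicate rno-miR-409b, at 43.4, 28.7 and 1474 CPM. The entry oar-miR-3958-3p was at 10.1, 8.68 and 537 CPM. The log2 difference between the sides was near 0 for the list (median 0.09), because its extremes in both directions were on the low side. Among entries with a mean of at least 100 CPM over the 3 libraries, hsa-miR-3168, which is not on that list, had the largest ratio between them, 139, at 4123, 29.7 and 241 CPM.

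Features of PPHN 8 and PPHN 11 without control 2 included the HOX-cluster miRNA oar-miR-10b, at 937 and 588 CPM, against 19.9 CPM in control 2 and 3.14 to 186 CPM in the 9. Its relative oar-miR-10a was at 18674 and 10914 CPM, against 2359 CPM in control 2, but control 1 reached 18496 CPM and PPHN 10 reached 12047 CPM. The inflammation-related bta-miR-146b was at 215 and 210.3 CPM against 22.9 CPM in control 2 and at most 78.0 CPM in the 9, while ipu-miR-155 was at 685 and 518 CPM against 1723 CPM and at least 739 CPM. In bta-miR-92a, of the miR-17-92 cluster, control 2 with 73641 CPM lay above the 9 (32329 to 60181 CPM), PPHN 8 with 40848 CPM within them and PPHN 11 with 26554 CPM below them.

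**Figure D5:**
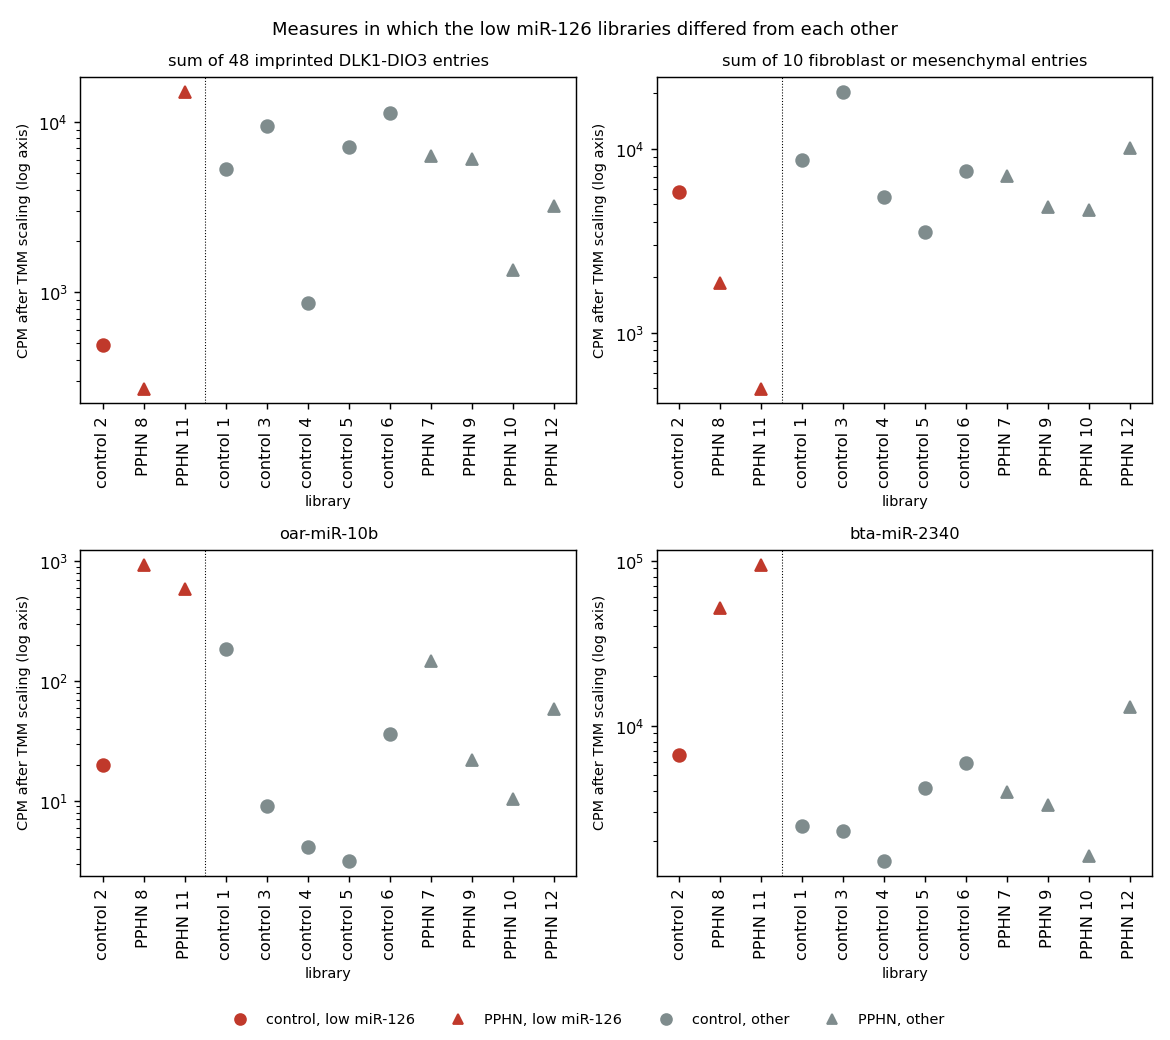
Summed level of the 48 imprinted and the 10 fibroblast or mesenchymal entries, and levels of oar-miR-10b and bta-miR-2340 (CPM after TMM scaling, log axes), in each library. The red points disagree with each other: PPHN 11 is the highest of 12 for the imprinted sum at 15001 CPM and the lowest for the fibroblast sum at 496 CPM, and control 2 has neither the high oar-miR-10b nor the high bta-miR-2340 of the PPHN pair.

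The study compared PPHN with control. With the miR-126 side held in the fit, edgeR called 0 of 468 entries for PPHN against control (0%; lowest adjusted p = 0.239), and 48 had an unadjusted p under 0.05. Without the miR-126 term it also called 0 (lowest adjusted p = 0.190), with 49 unadjusted. Beside the miR-126 term, limma-voom called 0 (51 unadjusted) and DESeq2 called 18 (72 unadjusted). Without control 4 or control 5, edgeR called 1 and 2 entries. Whether the low-side difference itself depended on surgery was tested as an interaction: edgeR called 0 of 462 entries (lowest adjusted p = 0.417), while 22 had an unadjusted p under 0.05, and control 2 alone stood for the control group on the low side.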

How the data were processed

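For each of 12 libraries the table deposited by the authors holds 1 column of raw counts, per the file headers. Per the submitters' processing notes, Bowtie 1.1.1 and Trim Galore 0.2.5 were used; the sources used here give neither settings, build nor miRNA reference. Entries carry names of many species, so near-identical entries can share reads. Libraries were split by the level of mmu-miR-126b-3p, under or over 1000 CPM of the column total. From the counts, edgeR 4.0.16 in R 4.3.3 (TMM, filterByExpr by surgery group, robust quasi-likelihood fit) tested the side with surgery as covariate over 468 entries, miR-126 included, with Benjamini-Hochberg adjustment. SE is the size of the log2 difference over the square root of F. DESeq2 1.42.0 and limma 3.58.1 were alternatives. The tests were checked on simulated data. All 66 pairs of libraries were compared by chi-square, with a lowest value of 364 per degree of freedom. The members, lists and split were chosen with earlier results of these data known. Named entries are the called ones outside the range of the 9 with at least 100 CPM on a side, the 5 most abundant, the 2 most abundant of each list and the 5 with the largest ratio among the low libraries and a mean of at least 100 CPM there; the lists' entries not described singly stand in their counts. The rest of the 34 are named because every shared difference is accounted for. Features given only for PPHN 8 and PPHN 11 were chosen from these named entries after their values were seen.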

Additional observations from a re-analysis of the deposited data

Results flagged for a closer look

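By Dixon's test, 1 library was too far from the other 5 of its surgery group in 11 of 80 cases, and entries of 1 miRNA are not independent. About 5% would arise by chance in entries not chosen by their values. In the 34 entries, control 2 lies beyond the other 5 controls by choice, so that share does not apply to them. Control 2 stood apart from the other controls in 4 of the entries higher on the low side: hsa-miR-222-5p at 198 CPM against 11.4 to 26.6 CPM, rno-miR-222-5p at 15.0 CPM against 1.81 to 3.83 CPM, rno-miR-3587 at 244 CPM against 37.4 to 98.4 CPM, and hsa-miR-615-3p at 34.5 CPM against 0 to 1.70 CPM. In PPHN 11, bta-miR-4286 was at 132 CPM against 49.4 to 69.1 CPM.

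Control 5, the library with the most miR-126, stood above the other controls in 4 entries lower on the low side. There bta-miR-497 was at 202 CPM against 17.8 to 62.2 CPM and rno-miR-195-3p at 18.6 CPM against 0.592 to 5.32 CPM. The entries bta-miR-504 and bta-miR-338 were at 19.1 CPM against 0 to 6.81 CPM and at 14.1 CPM against 0 to 3.90 CPM. Among the PPHN libraries, PPHN 7 was lowest for oar-miR-22-3p, with 83385 CPM where the rest had 98223 to 105313 CPM. The near-duplicate bta-miR-3600 had 82851 CPM there and 97625 to 104704 CPM in the rest.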

How the results depend on the processing

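No paired analysis was possible because the groups share no replicate numbers. The count of 5 called entries was 9 with upper-quartile scaling, 12 with column totals, 58 with DESeq2, 19 without the surgery covariate, 26 in PPHN libraries only, 3 after thinning, 0 against the other miR-143-poor libraries, and 1 with miR-126 names left out or adjusted over the other entries alone (an alternative chosen after seeing the data). Leaving out 1 library gave 2 to 35. Outside the range were 74 entries against the miR-143-poor libraries and 145 in PPHN libraries only. In both, fewer libraries set the range, so neither count can be read against the 34. The count of 34 became 34 to 97 without 1 library, and 26 to 31 of the 34 remained under the 3 other scalings. For PPHN against control, DESeq2 gave 18, and leaving out 1 library 0 to 2. The differences near 0 turned sign: oar-let-7f to 0.22 with column totals, and to -0.20 to 0.092 without 1 library; bta-miR-3600 and oar-miR-22-3p each to -0.058 with the filter of 10 CPM in 3 libraries, -0.13 without miR-143 and miR-145 names (mmu-miR-145a-3p kept), and -0.040 to 0.18 without 1 library. All 34 kept their sign in every alternative in which they were tested; the cause of the moved counts was not tested. Depth limits bta-miR-338, bta-miR-504, mml-miR-145-3p, hsa-miR-3065-5p and rno-miR-195-3p, with 0 to 3 counts per low library.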

Other observations

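Some entries differed between the sides about as clearly as the 34 without all 3 libraries leaving the range of the 9; they were chosen after their values were seen. The most abundant was bta-miR-2340, a cow-named entry with 6626, 51855 and 94769 CPM in control 2, PPHN 8 and PPHN 11, where the 9 had 1514 to 12985 CPM (log2 difference 3.02, SE 0.73; edgeR adjusted p = 0.0509). There control 2 lay below PPHN 12, the highest of the 9. The 5p arm of miR-151, bta-miR-151-5p, averaged 3269 CPM on the low side and 5607 CPM in the others (log2 difference -0.94, SE 0.23; edgeR adjusted p = 0.0509), the same direction as its 3p arm. Its near twin rno-miR-3586-3p averaged 3314 and 5830 CPM (log2 difference -0.98; edgeR adjusted p = 0.0509).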
